A study of Mus musculus with 6 samples.

Results

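The enzymes that build and break down glycogen were followed in AML12 cells, an established mouse hepatocyte line, after transfection with a construct for Zac1 or for EGFP. AML12 was derived from mice that carry a transgene for transforming growth factor alpha, so the cells of both groups share that background. RNA was collected at 24 h from 3 libraries with EGFP, a fluorescent protein that serves as the control, numbered 1 to 3, and 3 with Zac1, numbered 4 to 6. Zac1 is the zinc-finger factor that the imprinted gene Plagl1 encodes. All libraries are polyA RNA of transfected cells, and the share of cells that took up a construct is not given in the sources used here. The labels do not say that libraries came from separate cultures, so SDs and tests measure the spread between libraries, and that may be technical only.

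The 9 genes are Pygm, Pygl, Pygb, Gys1, Gys2, Gbe1, Gyg, Ugp2 and Ppp1r3c, matched by Ensembl ID among 49585 genes in the table. They were selected on the same contrast of Zac1 with EGFP, in which the lower level of Pygm was already known, so their differences between the groups are a description with no test. Of the 9, 6 reached a mean count of 10 across all libraries and entered the fit over 12130 genes. Pygl, Gys2 and Ppp1r3c did not.

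Total counts ran from 14801240 to 15145092 in EGFP and from 16104498 to 18302538 in Zac1. Plagl1, the gene of the construct, was read 39 to 79 times in the EGFP libraries and 106033 to 148382 times in the Zac1 libraries. A chi-square test of counts found replicates further apart than counting noise alone, at 2.29 to 8.83 per degree of freedom, so none was merged. Libraries EGFP 1 and Zac1 4 stood apart from the other 4 on the second principal component (15.5% of the variance), and results are given with and without them where they differ.

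Glycogen is a branched glucose polymer that liver and muscle keep as a reserve. Ugp2 makes UDP-glucose, the activated donor; glycogenin (Gyg) starts a chain by adding glucose to itself; glycogen synthase (Gys1, the form of muscle and most tissues, or Gys2, the liver form) lengthens it, and the branching enzyme Gbe1 adds branches. Glycogen phosphorylase releases glucose 1-phosphate from chain ends and has a muscle (Pygm), a liver (Pygl) and a brain (Pygb) form, and Ppp1r3c brings protein phosphatase 1 to glycogen, where it activates synthase and inactivates phosphorylase. In the hepatocytes of the animal the liver forms Pygl and Gys2 do this work.

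Sequences of the 3 phosphorylases are shown because the results turn on which of these paralogs the cells use and on whether reads tell them apart. The first 90 coding bases of each, from GENCODE M21 transcripts, are given 5′ to 3′ with codon 15 in capitals, counted from the start codon. It is the codon AGC in all 3 and encodes the serine that phosphorylase kinase phosphorylates.
Pygm: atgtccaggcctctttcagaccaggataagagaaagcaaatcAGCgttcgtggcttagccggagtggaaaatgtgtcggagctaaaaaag
Pygb: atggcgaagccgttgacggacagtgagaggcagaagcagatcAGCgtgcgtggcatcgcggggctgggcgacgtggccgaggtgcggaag
Pygl: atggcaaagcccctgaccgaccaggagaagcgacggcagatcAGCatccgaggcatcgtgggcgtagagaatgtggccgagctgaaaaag

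Over the whole coding sequence, Pygm and Pygb were identical at 77.3% of aligned bases, Pygm and Pygl at 75.4%, and Pygb and Pygl at 75.6%. The longest stretch that the Pygm and Pygb transcripts share without a mismatch is 62 bases, printed here because a read inside it could come from either gene.
Pygm and Pygb, shared run: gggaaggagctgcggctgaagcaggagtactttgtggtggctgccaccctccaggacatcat

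Of all windows of 50 bases in the Pygm transcript, 0.46% also occur in a transcript of another gene, all of them in Pygb, and the share in Pygb is 0.34%. Little of either transcript is therefore ambiguous at that length; the read length is not given in the sources used here. Gys1 shares 6.64% of its windows with Ruvbl2, whose exons overlap those of Gys1 by 310 bases on the opposite strand, and Ugp2 shares 1.1% with the antisense transcript Gm12043. No source used here says whether reads were counted by strand or how reads in such overlaps were assigned. Counts of Gys1 and Ugp2 may therefore have lost reads there or taken in reads of those partners.

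The 250 bases upstream of the RefSeq start (GRCm38.p6) are shown for the same 3 genes, with each CpG in capitals, because Pygm and Pygl, the expressed muscle form and the nearly silent liver form, differ from each other in this feature. The Pygl window lies inside the GENCODE span of that gene (70190811 to 70231488). The ends of the Pygm and Pygb windows reach into theirs, which start at 6384399 and 150786735. All 3 windows are thus upstream of the RefSeq start only.
Pygm, chr19:6384158-6384407, plus strand: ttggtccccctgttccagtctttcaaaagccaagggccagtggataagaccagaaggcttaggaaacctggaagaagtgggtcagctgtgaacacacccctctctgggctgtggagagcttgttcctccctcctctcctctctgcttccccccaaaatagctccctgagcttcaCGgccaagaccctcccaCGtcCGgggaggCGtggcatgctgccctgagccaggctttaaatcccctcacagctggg
Pygb, chr2:150786546-150786795, plus strand: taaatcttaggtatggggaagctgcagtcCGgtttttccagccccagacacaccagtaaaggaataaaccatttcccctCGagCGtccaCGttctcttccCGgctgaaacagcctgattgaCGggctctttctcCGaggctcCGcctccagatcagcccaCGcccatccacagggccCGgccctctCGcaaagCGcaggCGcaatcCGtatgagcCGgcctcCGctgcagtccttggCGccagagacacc
Pygl, chr12:70227684-70227933, minus strand: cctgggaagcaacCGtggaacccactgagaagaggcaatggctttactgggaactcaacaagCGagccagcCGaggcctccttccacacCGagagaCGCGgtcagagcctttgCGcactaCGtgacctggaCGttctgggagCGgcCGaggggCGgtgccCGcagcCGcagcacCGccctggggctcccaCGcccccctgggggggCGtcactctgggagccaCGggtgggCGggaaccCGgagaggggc

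This window of Pygm holds 4 CpGs, against 17 in Pygb and 20 in Pygl, and a median of 6 over 32851 promoters in the table, of which 44.4% have as few as Pygm or fewer. Of the other members, Gbe1 has 9, Gys1 11, Gyg 13 and Ppp1r3c 20, and the pair of Ugp2 starts has 23 and 21. The windows of Gyg and Ppp1r3c and the first of Ugp2 also lie partly or fully inside the GENCODE spans of those genes. Searched on both strands, GGGGCCCC, a palindrome described for Zac1 binding, occurs in none of these windows and in 0.89% of all; the GC box GGGCGG occurs 3 times in Pygl, not in Pygm or Pygb, and in 32.74% of all. The E-box CANNTG occurs 2 times in Pygm, not in Pygb or Pygl, and in 66.22% of all; this pattern includes CACGTG, which among the members' windows occurs only in Ppp1r3c and in 6.02% of all. TATAAA occurs in none of the members' windows and in 12.37% of all. These matches describe letters in the windows and are not binding sites. Gys2 had no entry in the table.

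CPM is the count scaled to library depth. In these hepatocytes the muscle and brain forms carried the phosphorylase transcripts, and the liver form was all but absent. RPKM, computed here as CPM per kilobase of the longest transcript, puts genes of different length on 1 scale. On it Pygb was at 13.6 ± 0.854 RPKM and Pygm at 3.17 ± 0.257 RPKM in EGFP (SD, n = 3), while Pygl had 1 read in 44832298 over the EGFP libraries and 0 in 51410749 over the Zac1 libraries. Glycogen synthase followed the same division: Gys1 was at 8.46 ± 0.553 RPKM and Gys2 had 0 reads in every library. A count of 0 over a group allows up to 0.0669 CPM in EGFP and 0.0584 CPM in Zac1, from 3 counts, which covers counting error only.

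In order of level in EGFP, Ugp2 stood highest (43.5 RPKM), followed by Pygb (13.6), Gyg (13.2), Gys1 (8.46), Gbe1 (4.69) and Pygm (3.17). Neighbours in this order did not overlap between libraries except Pygb and Gyg, whose ranges were 12.8 to 14.5 and 12.8 to 13.6 RPKM. In the Zac1 libraries the same order held apart from that pair, with Gyg at 15.4 and Pygb at 14.2 RPKM and ranges that again overlapped. Among all tested genes in EGFP, 86.5% lay below Ugp2 per length and 26.1% below Pygm.

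**Figure D1:**
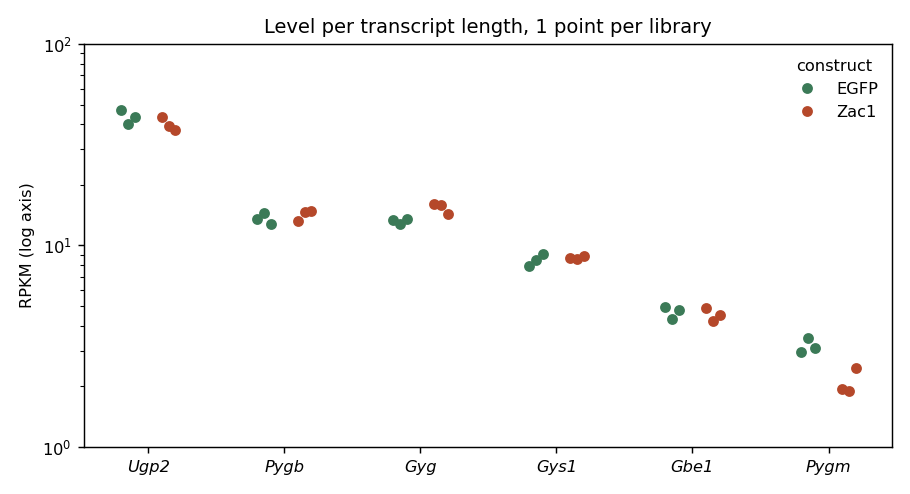
Level per transcript length of the 6 tested glycogen genes, in RPKM on a log axis, with 1 point per library (green EGFP, red Zac1). Ugp2 lies highest at 37.5 to 46.9 and Pygm lowest at 1.9 to 3.46.

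Pygm (ENSMUSG00000032648; GRCm38 chromosome 19, 6384399 to 6398459, plus strand) had 128, 148 and 131 reads in EGFP libraries 1, 2 and 3, and 89, 93 and 130 reads in Zac1 libraries 4, 5 and 6. Scaled to depth, these are 8.52, 9.93 and 8.84 CPM with EGFP and 5.54, 5.46 and 7.06 CPM with Zac1. Every Zac1 library lay below every EGFP library, and Zac1 6 stood nearest to the controls. The means were 9.1 ± 0.74 and 6.02 ± 0.905 CPM (SD, n = 3). The log2 fold change was -0.59 (SE 0.14; 95% interval -0.89 to -0.29), or 0.664 times the control level.

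Pygb (ENSMUSG00000033059; chromosome 2, 150786735 to 150831758, plus strand) was at 52.7, 56.8 and 50.2 CPM in EGFP and 51.5, 57.3 and 58.2 CPM in Zac1. The groups overlapped, and its log2 fold change was 0.06 (SE 0.07; 95% interval -0.09 to 0.22). The summed per-length level of the 3 phosphorylases was 16.8 ± 1.08 RPKM in EGFP and 16.3 ± 1.16 RPKM in Zac1, which differ by less than the spread between libraries. The share of Pygm in that sum was 18%, 19.2% and 19.3% in the EGFP libraries and 12.8%, 11.5% and 14.2% in the Zac1 libraries. This share is a ratio within a library and does not depend on the scaling between libraries. The groups did not overlap in it. With Pygb nearly level, the share restates the Pygm difference and gives it no separate support.

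**Figure D2:**
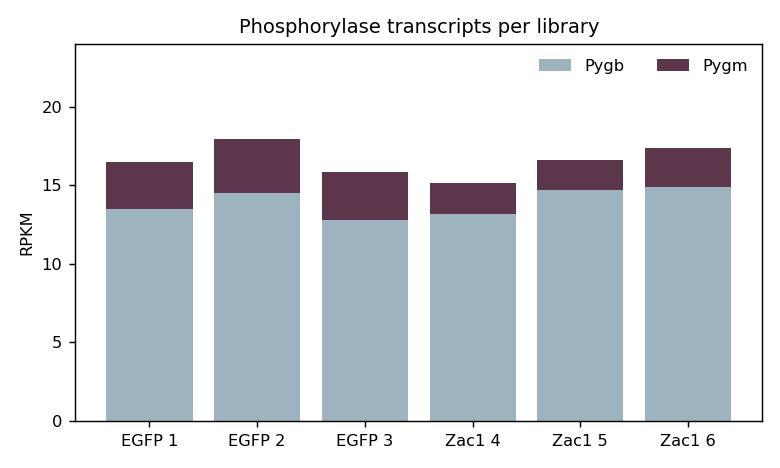
Stacked level per transcript length of Pygb (grey-blue) and Pygm (purple) in each library, in RPKM. The summed height stays between 15.1 and 18 in all 6 libraries, and the Pygm part is thinner in the 3 Zac1 libraries.

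Pygl (ENSMUSG00000021069; chromosome 12, 70190811 to 70231488, minus strand) had its 1 read in EGFP 1, too few for a fold.

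Fold changes of the synthesis enzymes were smaller than that of Pygm. Gys1 (ENSMUSG00000003865; chromosome 7, 45434844 to 45456619, plus strand) was at 29.2, 31 and 33.2 CPM in EGFP and 32, 31.4 and 32.8 CPM in Zac1, a log2 fold change of 0.04 (SE 0.07; 95% interval -0.11 to 0.2). The Zac1 values lie inside the EGFP range. Gys2 (ENSMUSG00000030244; chromosome 6, 142422613 to 142473109, minus strand) was listed at 0 throughout.

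Gyg (ENSMUSG00000019528; chromosome 3, 20122084 to 20155317, minus strand) was, with Pygm, 1 of 2 tested members whose groups did not overlap, which held for 20.6% of all tested genes. Its levels were 25.5, 24.6 and 26.2 CPM in EGFP and 30.7, 30.5 and 27.7 CPM in Zac1. The lowest Zac1 library, Zac1 6, was also the one in which Pygm stood nearest to the controls. Plagl1 was highest in Zac1 6, at 8062 CPM against 6597 and 7927 CPM in Zac1 4 and 5. Ugp2 was lowest there, at 101 CPM, the furthest of the Zac1 libraries from its EGFP mean of 117 CPM. Whether any of these levels goes with that of Plagl1 was not tested. The log2 fold change of Gyg was 0.22 (SE 0.08; 95% interval 0.05 to 0.39), and it did not pass the fit's threshold.

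Gbe1 (ENSMUSG00000022707; chromosome 16, 70313949 to 70569716, plus strand) was at 18.6, 16.1 and 17.8 CPM in EGFP and 18.4, 15.7 and 16.8 CPM in Zac1 (log2 fold change -0.04, SE 0.1). The groups overlapped nearly fully. Ugp2 (ENSMUSG00000001891; chromosome 11, 21321138 to 21371201, minus strand) was at 126, 108 and 117 CPM in EGFP and 116, 105 and 101 CPM in Zac1 (log2 fold change -0.12, SE 0.07; 95% interval -0.27 to 0.02). EGFP 1 was the highest library and the groups overlapped.

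Relative to Gys1 on the per-length scale, Gyg was at 1.57 ± 0.0896 times in EGFP and 1.77 ± 0.127 times in Zac1, and Gbe1 at 0.556 ± 0.0621 and 0.521 ± 0.0378 times (SD, n = 3). The Gbe1 ratio overlapped between the groups, as did the Gyg ratio (1.51 to 1.67 against 1.62 to 1.85).

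Ppp1r3c (ENSMUSG00000067279; chromosome 19, 36731731 to 36736653, minus strand), the phosphatase-targeting subunit, had 0, 1 and 0 reads in EGFP and 3, 1 and 1 in Zac1. The ratio of summed reads per depth was 4.36 with an exact (Clopper-Pearson) 95% interval of 0.488 to 206 that covers counting error only and leaves out the spread between libraries. It describes how little this depth resolves and is no test.

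**Figure D3:**
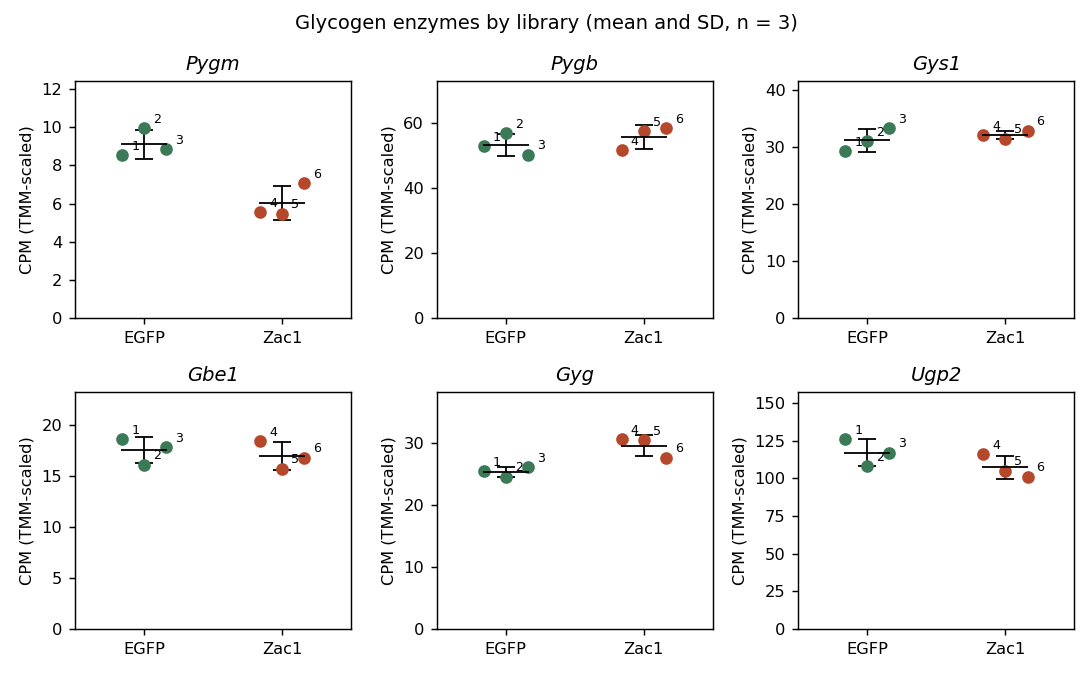
Level of the 6 tested glycogen genes in CPM (TMM-scaled), with 1 numbered point per library and the mean and SD of each group (n = 3) in black. The groups are apart for Pygm (5.46 to 7.06 with Zac1 against 8.52 to 9.93) and Gyg (27.7 to 30.7 against 24.6 to 26.2) and overlap in the other panels.

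In the fit over all genes (edgeR's quasi-likelihood test, Benjamini-Hochberg adjusted p under 0.05), 3.78% of tested genes differed between the groups, 3.12% higher and 0.668% lower in Zac1. Of the 6 tested members 1 was past that threshold, Pygm, which was lower; since the genes were proposed with this contrast known, nothing is read from this count. Pygm's place past the threshold ended without EGFP 2, EGFP 3 or Zac1 5, with log2 fold changes of -0.52, -0.61 and -0.52. It held in the other 12 of 15 settings. These calls rest on the libraries on which Pygm was selected and give its difference no further support. Without EGFP 1 and Zac1 4 together the log2 fold change of Pygm was -0.57.

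**Figure D4:**
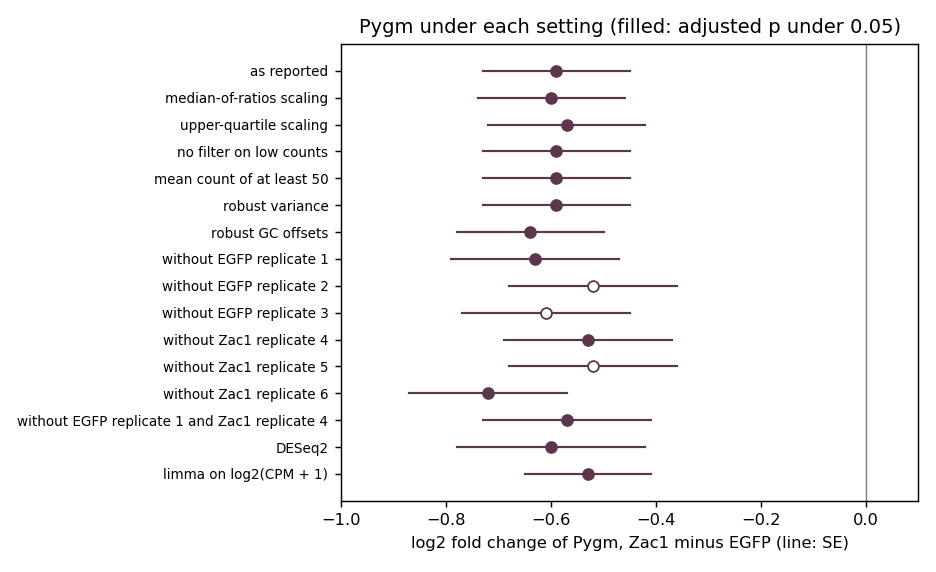
Log2 fold change of Pygm, Zac1 minus EGFP, with its SE as a line, as reported and under 15 other settings; filled points have an adjusted p under 0.05. All points lie between -0.72 and -0.52, and the 3 open ones are those without EGFP 2, EGFP 3 or Zac1 5. Filled and open marks are a description only, since Pygm was selected on this contrast.

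Fold changes over all tested genes followed the GC content of the longest transcript, with a Spearman's rho of 0.40 across 12116 genes, which are not independent replicates. The Pygm transcript has a GC content of 54.9%, above the median of 49.4%, on the side where fold changes tended to be higher in Zac1. With offsets for GC content its log2 fold change was -0.64 and that of Gyg (GC 48.7%) 0.23. Those of Ugp2, Pygb, Gys1 and Gbe1 came to -0.03, 0.02, -0.00 and 0.02. The signs of Gbe1 and Gys1 thus turned, that of Gys1 at a value that rounds to -0.00. Each of these shifts was smaller than 1 SD between replicates. 

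Pygm is a muscle form, so markers of skeletal muscle were read beside it. Of 12 such markers, 5 had 0 reads in every library (Myh1, Myh2, Myh4, Myod1 and Myog), and no marker exceeded 55 reads in a library, that of Mylpf. Their summed level was 2.89 to 3.73 CPM in EGFP and 4.54 to 5.81 CPM in Zac1. Most of it was Mylpf, at 2.44 ± 0.198 and 3.01 ± 0.391 CPM. Only 2 of the 12 were tested and 0 passed: Mylpf (log2 fold change 0.30, SE 0.20) and Actn3 (0.99, SE 0.49). Hepatocyte markers were present unevenly. Their sum was 1582 to 1832 CPM in EGFP and 1439 to 1715 CPM in Zac1. Most of it was Apob, at 1355 ± 150 and 1270 ± 145 CPM. Hnf4a was at 201 and 206 CPM and Alb at 34.6 and 34.7 CPM. Above the count minimum were 6 of 9. Trf (transferrin) and Cps1 (a urea cycle enzyme) had at most 5 reads in a library, and Fgb had 4 to 16. Ttr, a secreted carrier protein, was the hepatocyte marker that passed the test (log2 fold change -0.67). Bile duct markers summed to 363 to 402 CPM in EGFP and 385 to 409 CPM in Zac1. Most of that was Krt19, at 257 ± 18.1 and 252 ± 8.37 CPM, while Epcam had at most 2 reads in a library. Markers of fibroblasts, leukocytes, endothelium, adipocytes and astrocytes each summed to at most 2.61 CPM in a library; Col1a1 among the fibroblast markers was higher (log2 fold change 1.54). What part such cells or cell states have in the Pygm difference was not tested, and in bulk RNA fewer cells that express a gene and less RNA per cell cannot be told apart.

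The rest of the pathway was taken from 53 genes listed by textbook role, of which 40 were tested. By edgeR 0 passed as higher and 0 as lower over all genes, against 3.78% of all tested genes. At an unadjusted p under 0.05 there were 3 higher and 3 lower, against 15.8% of all genes in either direction; DESeq2 called 1 (3.53% of all genes) and limma 0 (3.69%). The median log2 fold change of the 40 was -0.03, with 24 below 0, beside a median of -0.002 with 50.5% below 0 over all tested genes. The groups did not overlap in 8 of the 40 (Phka2, Phkb, Ppp1r3b, Slc2a2, Akt1, Akt2, Csnk2a1 and Insr), against 20.6% of all tested genes. With GC offsets 0 of the 40 passed as well. Log2 fold changes that moved by over 1.5 times are given beside the genes whose own fold change is printed below. Of genes named without one, Phkb moved from -0.13 to -0.08 and Ppp1r3e from 0.06 to -0.08. The 95% intervals of the 40 spanned -1.02 to 0.42 at their outermost, the low end being that of the sparsely read Epm2a.

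Phosphorylase kinase activates phosphorylase by phosphorylating the serine marked above. Of its 5 subunit genes 4 were tested and 0 passed in either direction; all 4 log2 fold changes were below 0, from -0.15 to -0.11. Phka2, the liver form of the alpha subunit, was at 55.6 ± 1.24 CPM in EGFP against 50 ± 1.87 CPM in Zac1 (SD, n = 3; -0.15, SE 0.06, edgeR adjusted p = 0.236), and its groups did not overlap. Phkg2, the liver form of the catalytic subunit and the highest of them per longest transcript in EGFP (15.2 RPKM; per exon union its 7.3 RPKM lay below the 9.17 of Phka2), was at 29.2 ± 1.81 and 27.1 ± 2.24 CPM (-0.11, SE 0.08). The muscle catalytic form Phkg1 had 2 to 11 reads per library. Phka1, the muscle form of the alpha subunit, was at 29.2 ± 1.77 CPM in EGFP and 26.3 ± 1.46 CPM in Zac1. Exons of Phkg2 overlap Ccdc189 on the opposite strand over 21.9% of their length. On the opposite strand too, exons of Ppp1ca overlap Rad9a (8.93%) and those of Pgm1 overlap Itgb3bp (13.63%). Those of Ppp1cb overlap Gm43312 on the same strand (17.48%). Counts of these genes may have lost reads in the overlaps or taken in reads of the partners.

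Of 3 further genes of glycogen breakdown, 0 passed. Gaa, the lysosomal glucosidase, was at 97.5 ± 3.27 CPM in EGFP and 92.5 ± 7.31 CPM in Zac1 (log2 fold change -0.08, SE 0.06; -0.16 with GC offsets). Among 9 genes of protein phosphatase 1 and its glycogen-targeting subunits, 5 were tested and 0 passed. Ppp1ca, a catalytic subunit and the highest per length, had a log2 fold change of 0.01 (SE 0.04; -0.04 with GC offsets), and Ppp1cb, another catalytic subunit, one of -0.15 (SE 0.08, edgeR adjusted p = 0.362; 0.00907 without Zac1 4; log2 fold change -0.08 with GC offsets). With Ppp1r3c at a few reads and Ppp1r3a, Ppp1r3d and Ppp1r3g at 0, the targeting subunits above the count minimum were Ppp1r3b and Ppp1r3e, at 5.72 ± 0.163 and 4.67 ± 0.922 CPM in EGFP; these 5 were named after their values were seen. Epm2a (laforin, a glycogen phosphatase) was read 30, 48 and 46 times in EGFP and 29, 29 and 44 times in Zac1 (-0.49, SE 0.25, edgeR adjusted p = 0.362).

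Of 13 genes of glucose entry, phosphorylation and release, 10 were tested and 0 passed. Slc2a2, the GLUT2 transporter of hepatocytes, came nearest, at 919, 1072 and 1071 reads in EGFP and 895, 958 and 1098 in Zac1. Scaled to depth that is 68.5 ± 6.32 and 57.2 ± 2.16 CPM (SD, n = 3), with no overlap between the groups (log2 fold change -0.26, SE 0.07, edgeR adjusted p = 0.0681). It was past the threshold with DESeq2 (adjusted p = 0.0489), with no filter on low counts (0.0108), without EGFP 1 (0.00904) and without EGFP 1 and Zac1 4 together (0.000225). It was not past it in the other 11 of 15 settings, among them GC offsets (log2 fold change -0.19, adjusted p = 0.253) and the fits without EGFP 2 (0.182), EGFP 3 (0.306) or Zac1 5 (0.276). Pgm1, a phosphoglucomutase and the highest of the group per longest transcript in EGFP (21.3 RPKM, with Slc2a1 at 20.3; in Zac1, and per exon union, Slc2a1 lay higher), was at 53.8 ± 4.48 and 52.3 ± 0.877 CPM (-0.04, SE 0.07). Glucose 6-phosphatase (G6pc) and the glucagon receptor (Gcgr), both genes of liver glucose handling and named after their values were seen, had at most 3 reads in any library. Other genes of glucose release, also named after their values were seen, were well above the count minimum. G6pc3, another glucose 6-phosphatase gene, was at 24.1 ± 2.32 CPM in EGFP (log2 fold change 0.03, SE 0.10, -0.05 with GC offsets). Slc37a4, the glucose 6-phosphate transporter, was at 30.4 ± 2.87 CPM in EGFP (-0.10, SE 0.08, -0.15 with GC offsets).

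The 13 genes of kinases that act on glycogen synthase directly or upstream of it, regulatory subunits of AMP-activated kinase included, were all tested and 0 passed. Akt1, which inhibits GSK3 downstream of insulin, was at 258 ± 7.33 and 280 ± 15.5 CPM (log2 fold change 0.12, SE 0.05, edgeR adjusted p = 0.298; 0.03 and 0.905 with GC offsets). Csnk2a1, a catalytic subunit of casein kinase 2 that primes synthase for GSK3, was at 142 ± 1.7 and 127 ± 9.1 CPM (-0.16, SE 0.06, edgeR adjusted p = 0.173; 0.0331 without Zac1 4). The insulin receptor gene Insr was the only 1 of 4 hormone receptor genes above the count minimum, at 89.8 ± 2.54 and 99.3 ± 1.91 CPM (0.15, SE 0.05, edgeR adjusted p = 0.181), with no overlap between the groups.

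Other enzymes of UDP-sugars numbered 4, of which 3 were tested and 0 passed. Ugdh, which oxidises the UDP-glucose that Ugp2 makes, was at 348 ± 20.5 and 324 ± 7.64 CPM (log2 fold change -0.1, SE 0.05; -0.04 with GC offsets). Galk1, galactokinase, the highest per length, was at 91.5 ± 6.78 and 98.5 ± 6.8 CPM (0.11, SE 0.07; -0.00 with GC offsets). Galt was listed at 0 in all 6 libraries.

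**Figure D5:**
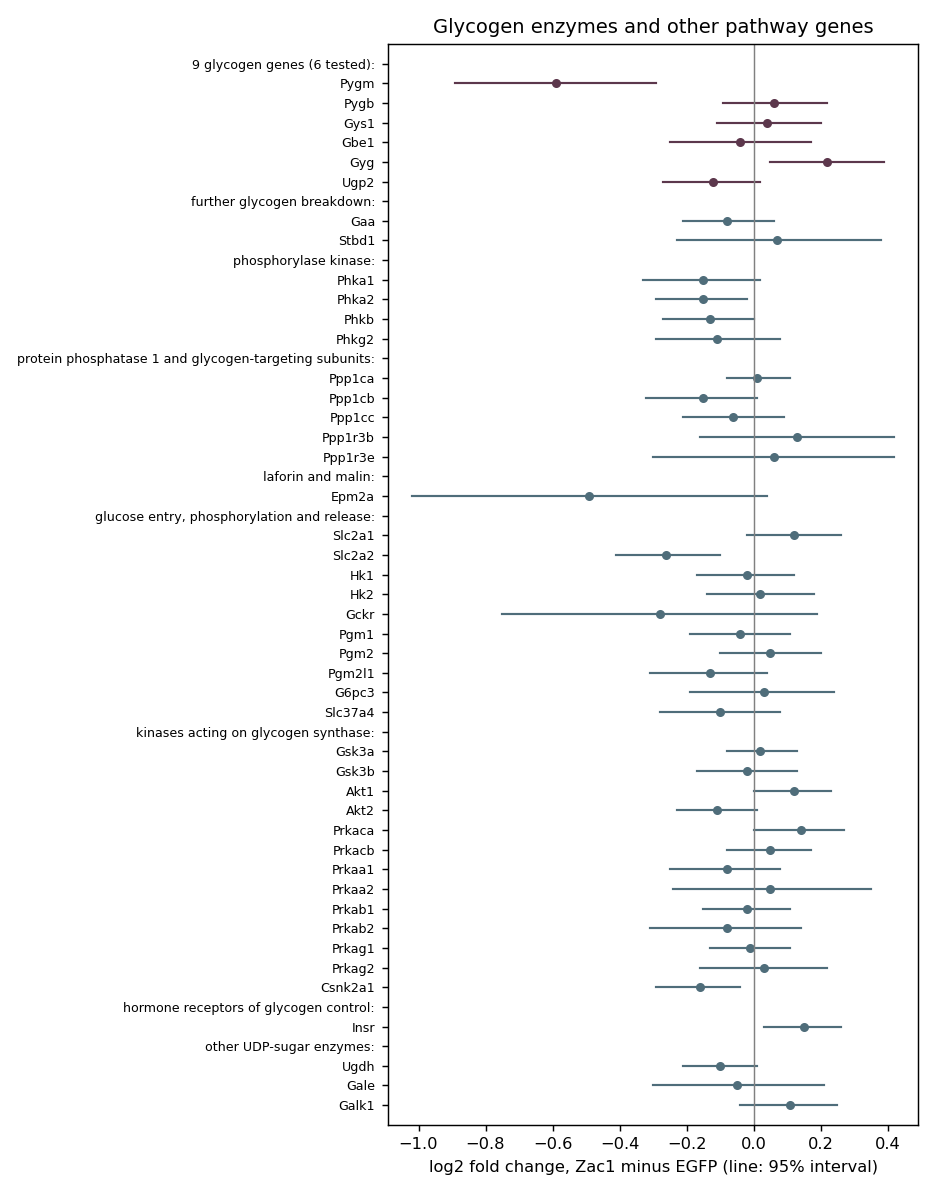
Log2 fold change, Zac1 minus EGFP, of the 6 tested glycogen genes (purple) and of other tested pathway genes (blue), with 95% intervals from the edgeR fit. Pygm lies lowest at -0.59; the other genes lie between -0.49 (Epm2a) and 0.22 (Gyg).

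By Pearson's r of log2 CPM over the 6 libraries, the genes most like Pygm among 9910 compared were Pnrc2, a nuclear receptor coactivator (r = 0.995), Nfe2l2, the transcription factor NRF2 (0.989), and Rps4x, a ribosomal protein (0.989), and 104 genes had an r above 0.9. This likeness is in the shape over libraries that fall into 2 groups and not in size: their log2 fold changes were -0.11, -0.08 and -0.05, against -0.59 for Pygm.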

How the data were processed

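The authors named FastQC, STAR, HTSeq and DESeq2, without versions, per the submitters' processing notes. The build, annotation and strand setting were not given in the sources used here. The deposited table holds 1 column of read counts per library. It is called normalized, but its values are whole numbers with 0 of the numbers 1 to 40 absent in any library and unequal totals, so the deposited values were treated as counts. IDs were matched to GENCODE M21 symbols (49326 of 49585), which also gave coordinates, lengths and GC.

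Zac1 was compared with EGFP over genes whose mean count reached 10, by a two-sided test in edgeR 4.0.16 (R 4.3.3; TMM, glmQLFit and glmQLFTest, prior count 0.125, Benjamini-Hochberg over 12130 genes). SE is the log2 fold change over the square root of F, and 95% intervals use the fit's degrees of freedom. CPM uses TMM-scaled depth. The fit was tested on simulated data.

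The members and lists were chosen with earlier results of these data known. Named were the members and, per list, genes past the threshold, the highest per length in EGFP and the smallest p; some genes that the rule takes are left out. Alternatives were DESeq2 1.42.0, limma 3.58.1 on log2(CPM + 1), other scalings, filters and variance, GC offsets and left-out libraries.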

Additional observations from a re-analysis of the deposited data

How the results depend on the processing

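The log2 fold changes of the 6 tested glycogen genes moved by less than 1 SD between replicates under each of the 15 alternatives. They ran from -0.72 to -0.52 for Pygm, 0.19 to 0.27 for Gyg and -0.18 to -0.03 for Ugp2. The number of the 9 genes past the threshold was 1, and 0 to 1 with 1 library left out. Of all tested genes 459 changed; 979 did with no filter on low counts, 241 with a mean count of at least 50, 1461 without EGFP replicate 1 and Zac1 replicate 4, and 206 to 963 with 1 library left out. Of the 40 other pathway genes 0 passed, against 1 with no filter, 1 with DESeq2, 0 to 2 with 1 library left out and 5 without EGFP replicate 1 and Zac1 replicate 4 (Slc2a1, Slc2a2, Insr, Csnk2a1 and Ppp1cb). The prior degrees of freedom, by which edgeR shares the variance over genes, had a median of 10.02 as reported, 1563.25 without those 2 libraries and infinite with no filter. Per exon union in place of the longest transcript, levels in EGFP were 38.0 RPKM for Ugp2, 11.1 for Pygb, 10.8 for Gyg, 6.50 for Gys1, 3.27 for Gbe1 and 2.83 for Pygm, in the same order. The causes of these shifts were not tested, apart from the length used. No paired analysis was made because the labels state no pairing of libraries between the groups, and whether any exists is not known. Depth limits what can be said of Pygl, Gys2 and Ppp1r3c, which had 0 to 3 reads per library.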
